A study of Mus musculus with 288 samples.

Results

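Dbp, Tef and Hlf encode the 3 PAR bZIP transcription factors, and Nfil3 encodes a related basic leucine zipper factor that works against them. These 4 genes were taken by name from the expression tables of 6 mouse tissues, in which 35904 genes were quantified, and all 4 passed the filters on low values in every tissue. The animals were male wild-type C57BL/6J mice, 8 weeks old, and neither group carried a transgene. One group breathed room air throughout (normoxia), and the other was exposed for 7 days to intermittent hypoxia (IH), in which oxygen cycled between 21% and 8% during the inactive phase. Both groups were then kept in constant darkness and normal air for 2 days, so IH samples were collected after the exposure and not during it. Lung, liver, kidney, skeletal muscle, heart and cerebellum were collected every 3 h at 8 time points, from 1:30 to 22:30 as the labels give them, with 3 libraries per tissue, treatment and time point. That gave 24 libraries of bulk tissue RNA per tissue and treatment, and 48 per tissue. The labels do not record which tissues came from 1 mouse.

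PAR bZIP factors bind, as dimers, to D-box elements and activate transcription, and NFIL3, also called E4BP4, binds to the same elements and represses. Dbp is a classical target of the CLOCK and BMAL1 activators, which act through E-boxes, whereas Nfil3 is repressed by the REV-ERB receptors and activated by the ROR receptors through ROR elements. In liver and kidney the PAR bZIP factors are known for the daily control of genes of drug and vitamin B6 metabolism, and they are widely used as readouts of the peripheral clock.

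Expression is given in TPM, the number of transcripts of a gene scaled to a fixed total per library, which corrects for transcript length, so that levels of different genes can be set side by side. TPM keeps no read depth, so the depth behind each value is unknown and no counting interval can be given. The 4 markers of each tissue summed to more TPM in its own libraries than in any library of another tissue, apart from 2 libraries. The library labelled liver, IH, replicate 2 at 13:30 held 988 TPM of liver markers, against 17916 to 83273 in the other liver libraries, and 4143 TPM of heart markers, against 2.86 to 35.4. The library labelled cerebellum, IH, replicate 3 at 1:30 held 255 TPM of cerebellar markers, against 1120 to 4447, and 4733 TPM of heart markers, against 16.7 to 2784. In kidney, the normoxia library of replicate 1 at 1:30 had kidney markers like the rest but 58.6 TPM of Dbp, against 11.1 and 6.34 TPM in the other 2 libraries of that time point. Mean differences, rhythms and amplitudes in these tissues were computed with and without these 3 libraries, and their removal changed no call of a member.

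Dbp lies at chr7:45705088-45710203 on the plus strand of GRCm38, Tef at chr15:81802421-81826863 on the plus strand, Hlf at chr11:90336536-90390895 on the minus strand and Nfil3 at chr13:52967209-52981073 on the minus strand. RefSeq promoter windows, from 250 bases before to 50 bases after a start, were read for all 4 genes, with 2 windows for Tef. They were searched on both strands for the E-box CACGTG, for the D-box TTATGTAA or TTACGTAA, and for the ROR element, read as AGGTCA after a T and a stretch of 5 bases with at least 3 of A or T. The stretches that held a match are shown because E-boxes and ROR elements are the known inputs to these genes, whose timing is described here. They are written 5′ to 3′ on the strand of the gene, with the match in capitals.
Tef, first window, chr15:81802534-81802563: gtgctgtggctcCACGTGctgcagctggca
Tef, second window, chr15:81811264-81811293: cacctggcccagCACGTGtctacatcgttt
Nfil3, chr13:52981040-52981063: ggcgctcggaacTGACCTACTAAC
The E-boxes of Tef lay 121 and 132 bases before the 2 RefSeq starts, the former within an untranslated exon of 1 annotated GENCODE transcript and the latter within no annotated exon. The ROR element of Nfil3 was read on the opposite strand and ended at the start site, within the untranslated exon of the annotated transcript. Of 32851 mouse promoter windows of this length, 7.15% held the E-box, 1.28% the ROR element and 1.06% the D-box. No D-box was found in these windows, and none of the 3 motifs in those of Dbp and Hlf, which says only that these letters are not in these windows.

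The 3 activators had different levels and different tissue orders in normoxia. Tef was the most abundant, with a mean of 121 ± 60.6 TPM (SD, n = 24 libraries over the day) in lung and 118 ± 26.0 TPM in muscle. Tef then fell in order through kidney at 83.4, cerebellum at 81.6, heart at 57.7 and liver at 45.1 TPM. Only the step from muscle to kidney was larger than the SD of both tissues, and it held at 8 of 8 time points. The Dbp level was highest in cerebellum, at 98.4 ± 42.6 TPM, followed by muscle at 75.7, lung at 60.8, kidney at 46.4, heart at 45.6 and liver at 42.5 TPM. No neighbours in that order differed by more than their SD, which for Dbp is made up mostly of its daily swing. The Hlf level was highest in kidney, at 28.5 ± 7.80 TPM, which was above cerebellum at 16.6 TPM by more than the SD of both and at 8 of 8 time points. Hlf then stood at 12.9 TPM in liver, 9.71 in lung, 6.70 in muscle and 5.52 in heart, with no step larger than the SD.

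The repressor Nfil3 had another order, with 23.9 ± 13.7 TPM in muscle, 19.9 ± 9.24 in liver, 11.6 in cerebellum, 8.68 in kidney, 6.71 in lung and 6.18 TPM in heart. None of these neighbours differed by more than their SD. After IH the order of the tissues was the same for Dbp and Hlf, while for Tef cerebellum stood above kidney, and for Nfil3 heart stood above lung. Within a library, Tef made up the largest mean share of the summed TPM of the 3 activators in every tissue but cerebellum, from 50.5% in liver to 67.8% in lung in normoxia. In cerebellum Dbp held 50.4%. Hlf held 20.3% in liver and 20.5% in kidney, and between 3.38% and 8.69% elsewhere. The share of Dbp moved with the time of day, for example from 6.60% at 22:30 to 59.5% at 7:30 in normoxic liver.

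All 3 activators peaked in the middle of the sampled day and Nfil3 some hours later, close to opposite to Dbp. In liver, Dbp stood at 120, 134 and 130 TPM in the 3 normoxia libraries at 7:30 and at 1.40, 1.99 and 1.01 TPM at 1:30, and the groups did not overlap. After IH the same time points held 94.5, 134 and 116 TPM and 1.75, 1.02 and 0.870 TPM. The ratio of peak to trough means was 87.4 in normoxia and 94.6 after IH, the widest daily swing of a member in any tissue. It was 9.31 to 24.2 in the normoxic lung, kidney, muscle and heart, and 2.23 in cerebellum.

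Nfil3 ran the other way. In the same normoxic liver samples its 3 libraries held 6.80 to 9.61 TPM at 7:30 and 30.7 to 40.7 TPM at 1:30. Its widest ratio of peak to trough means was in kidney, at 6.07 in normoxia and 10.45 after IH.

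**Figure D1:**
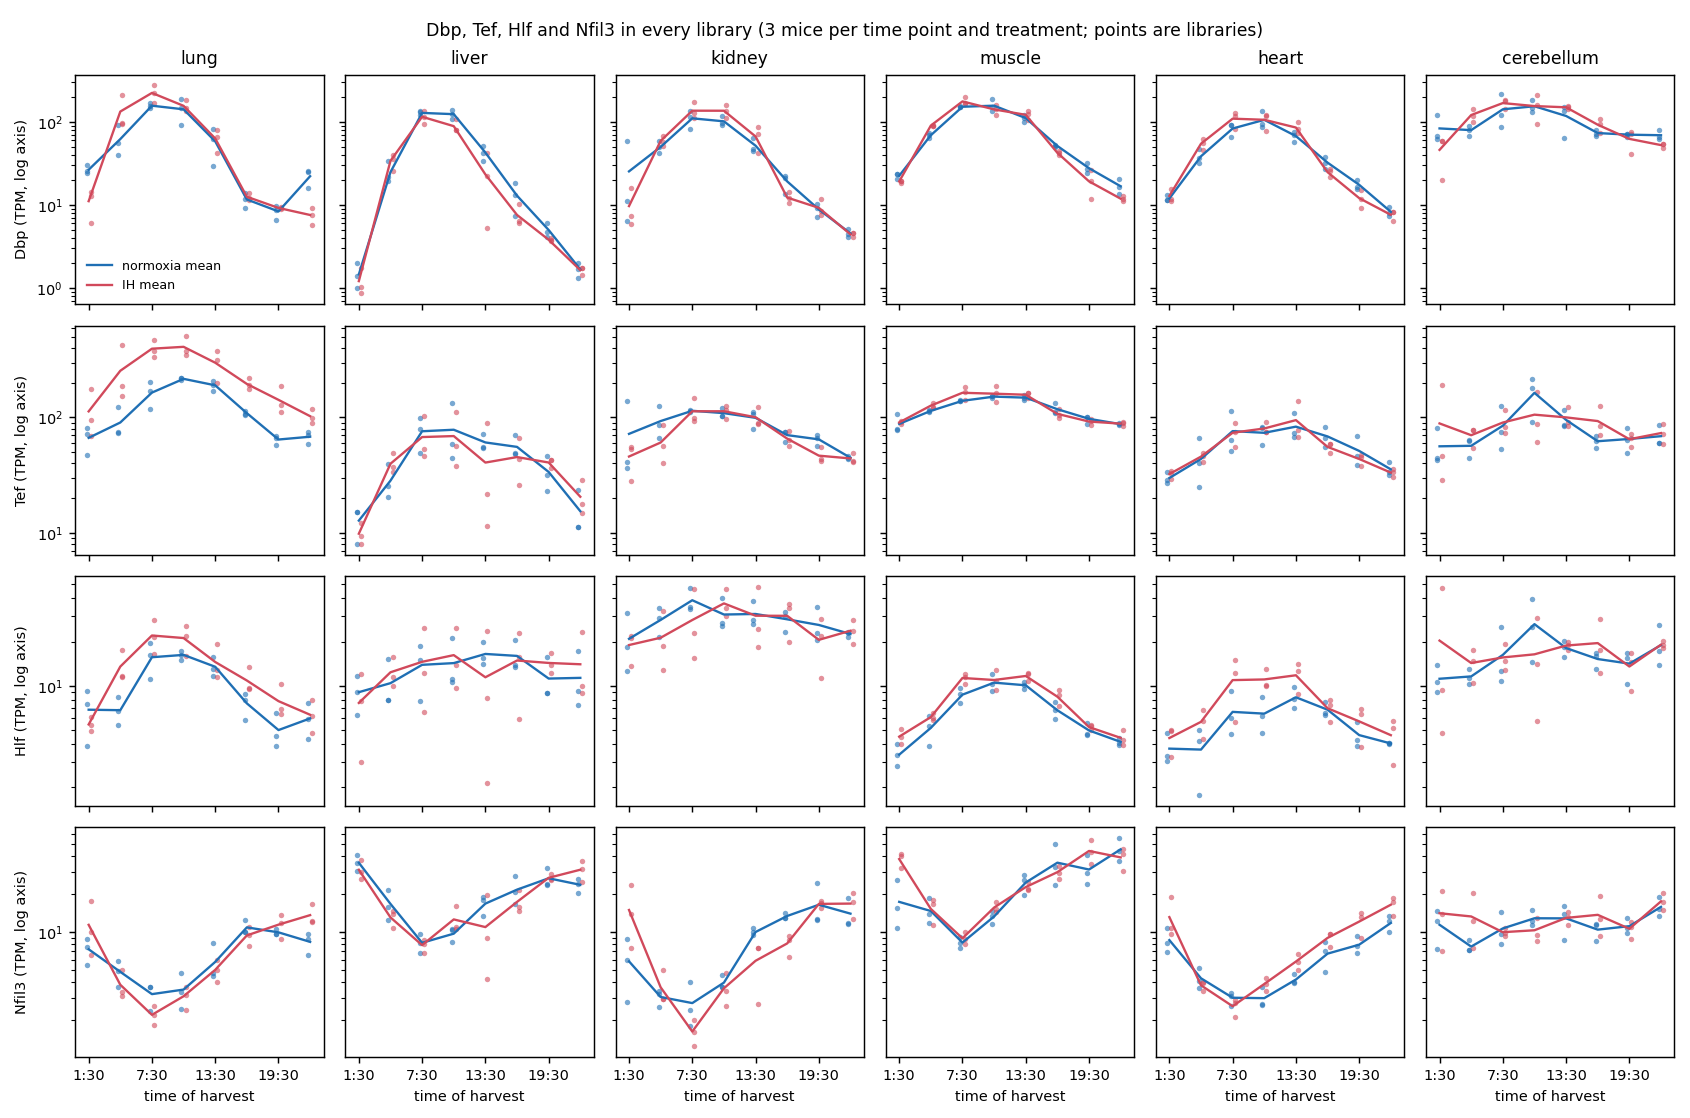
TPM on a log axis of Dbp, Tef, Hlf and Nfil3 (rows) against time of day as the labels give it (h), in 6 tissues (columns), for normoxia and IH. Points are single libraries and lines join the means of 3 libraries. Dbp in liver runs from means of 1.46 TPM at 1:30 to 128 TPM at 7:30 in normoxia, while Nfil3 is lowest where Dbp is high.

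Rhythm was tested with a 24 h cosine in the 24 libraries of each tissue and treatment. Of the 24 combinations of gene and tissue, 18 were called rhythmic in normoxia and 18 after IH at an adjusted p of at most 0.05, and 17 were called in both. Across all genes tested, the share called in normoxia was 2.99% in lung, 8.56% in liver, 8.49% in kidney, 0.870% in muscle, 0.285% in heart and 0% in cerebellum. After IH it was 4.46%, 2.86%, 1.19%, 2.28%, 1.21% and 0.00468% in the same order. In lung, muscle and heart all 4 members were called in both treatments, where at most 4.46% of all genes were. Some of these calls needed all 3 replicates. In normoxic heart Hlf and Tef were not called whichever replicate was left out (adjusted p of 0.0635 to 1 and of 0.191 to 0.939), nor was Nfil3 in normoxic muscle (0.106 to 0.238). Leaving out replicate 1 also ended the calls of Nfil3 in lung after IH and of Hlf, Tef and Nfil3 in heart after IH, leaving out replicate 2 that of Nfil3 in normoxic heart, and leaving out replicate 3 that of Hlf in heart after IH. The rank test did not call Tef in normoxic heart or Hlf in heart after IH (adjusted p = 0.0607 for each). Dbp was called in 5 of 6 tissues in normoxia and in 6 after IH, Tef in 5 and 4, Hlf in 3 and 3, and Nfil3 in 5 and 5.

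By this test the exceptions were Hlf in liver and kidney, Tef in liver after IH, and most of cerebellum. Several of those in liver and kidney depended on the fit. With limma on the log2 scale Hlf was called in normoxic liver (adjusted p = 0.00649) and normoxic kidney (adjusted p = 0.00863), and Tef in liver after IH (adjusted p = 0.00697), whereas Hlf after IH was called in neither tissue. With the cosine test on TPM, Hlf in liver had an adjusted p of 0.173 in normoxia and 0.900 after IH, and in kidney of 0.120 and 0.556, although the cosine there had an amplitude of 6.08 TPM around a mean level, or MESOR, of 28.5 TPM. In liver, Hlf also differed between replicates. In normoxia the replicates numbered 1, 2 and 3 averaged 9.80, 11.1 and 17.7 TPM, and after IH 8.80, 10.6 and 20.3 TPM. Tef in liver was likewise highest in replicate 3, at 59.9 TPM in normoxia and 62.9 TPM after IH, against 33.0 and 42.3 TPM and 30.2 and 31.8 TPM. Tef in liver was called in normoxia (amplitude 32.6 ± 5.74 TPM, SE) and not after IH (22.4 ± 6.96 TPM, adjusted p = 0.197, and 0.0591 without the liver library in doubt). That the calls differ does not show that the rhythms do, and the difference of these amplitudes had an adjusted p of 0.871.

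In normoxic cerebellum 0 of 21372 genes passed the cosine test, with 4144 at an unadjusted p of at most 0.05. The rank test and limma on the log2 scale also called 0, while over all alternatives the number ran up to 39. Dbp was the only gene called there after IH (adjusted p = 0.00522), with an amplitude of 62.9 ± 7.60 TPM around a MESOR of 106 TPM, against 40.7 ± 9.32 around 98.4 TPM in normoxia. This call was kept with limma on the log2 scale (adjusted p = 7.22e-05). It was lost with the rank test, and without any of the 3 replicates its adjusted p lay between 0.129 and 1. Only genes rhythmic in at least 1 treatment were tested for amplitude. In cerebellum Dbp was the only such gene, through its call after IH. The difference of its amplitudes there, 22.2 ± 12.0 TPM, had a p of 0.0717 in that test, which adjustment over 1 gene left unchanged. This p takes no account of the choice by the IH call.

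The acrophase, the time at which the fitted cosine is highest, fell between 8.17 and 10.2 h for Dbp over its called tissues and treatments. It fell between 9.30 and 12.2 h for Tef, between 9.74 and 12.9 h for Hlf and between 18.9 and 22.2 h for Nfil3, with standard errors from 0.248 to 0.776 h over the 4 genes. In the 5 tissues other than cerebellum, Tef followed Dbp by 0.407 ± 0.665 h (SE) in normoxic kidney up to 2.32 ± 0.486 h in normoxic lung. Where Hlf was called, in lung, muscle and heart, it followed Dbp by 1.52 to 2.63 h. Nfil3 came 9.60 ± 0.692 h after Dbp in normoxic muscle and up to 13.47 ± 0.745 h after it in liver after IH. The activators therefore peaked within a few hours of each other in every tissue where they were called, and Nfil3 in none of them peaked together with an activator.

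**Figure D2:**
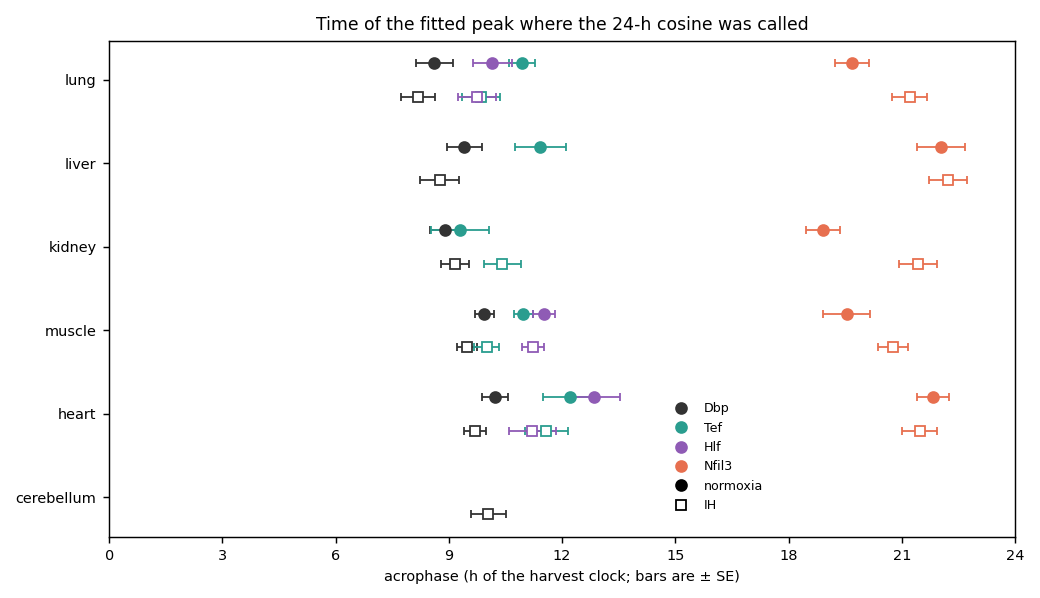
Acrophase (h, time of day as the labels give it) of each member in each tissue and treatment, with its standard error, for the combinations called rhythmic. Dbp lies between 8.17 and 10.2 h, Tef and Hlf slightly later and Nfil3 between 18.9 and 22.2 h.

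Relative to its MESOR, the cosine amplitude was largest for Dbp, at 59.5% to 147% over the called combinations. It was 51.2% to 88.7% for Nfil3, 39.6% to 63.2% for Hlf and 29.2% to 72.4% for Tef. Tef in muscle, one of its highest levels, had the smallest relative amplitude in normoxia, at 29.2%, with means from 87.5 TPM at 22:30 to 152 TPM at 10:30. In normoxic muscle, time of day accounted for 97.5% of the variance of Dbp, 92.7% of that of Tef, 92.6% of that of Hlf and 79.4% of that of Nfil3. Other tissues were lower for some members, with 32.5% for Hlf in normoxic liver and 45.8% in normoxic kidney.

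The balance of activator to repressor was followed by the ratio of Dbp to Nfil3 within each library, with 0.5 TPM added to both. In normoxic liver the mean log2 ratio went from −4.22 at 1:30 to 3.89 at 7:30, a swing of 277-fold, and in IH liver the swing was 258-fold. Dbp exceeded Nfil3 in 12 of 24 liver libraries of each treatment. In the other tissues the swing was 51.0-fold in lung, 98.5-fold in kidney, 46.4-fold in muscle, 42.4-fold in heart and 2.85-fold in cerebellum in normoxia. After IH it was 144-fold, 222-fold, 59.4-fold, 73.6-fold and 5.43-fold in the same order, wider than in normoxia in each of these 5 tissues, as a description with no test. In cerebellum Dbp was above Nfil3 in all 48 libraries.

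**Figure D3:**
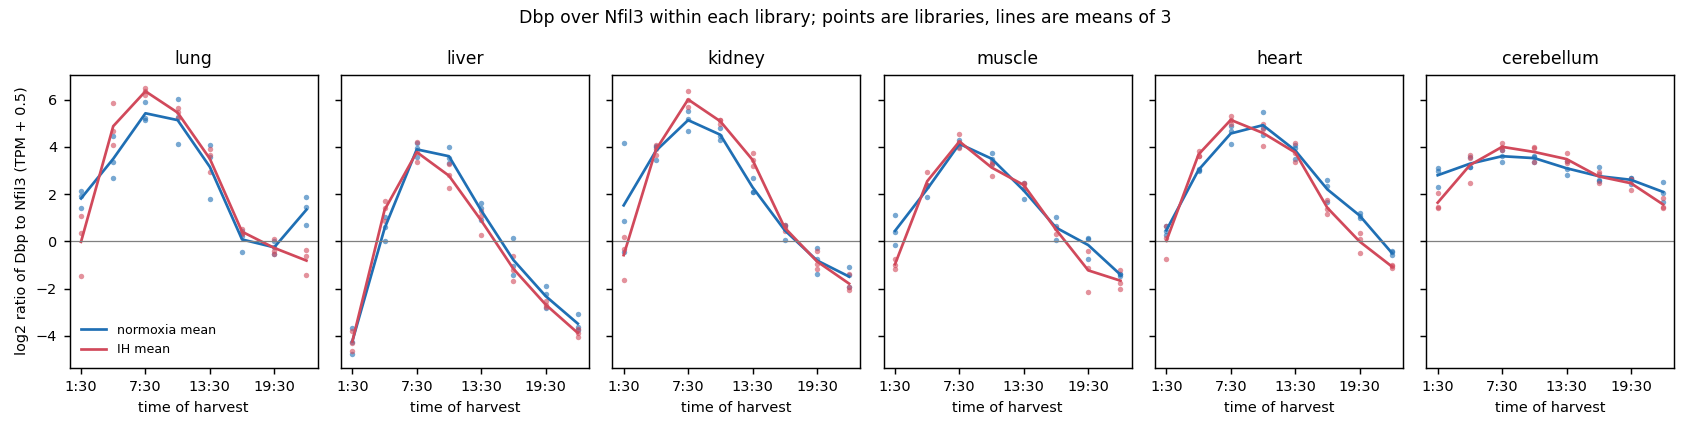
log2 ratio of Dbp to Nfil3 (TPM + 0.5, within each library) against time of day as the labels give it (h), for 6 tissues in normoxia and IH, with single libraries as points and means of 3 as lines. The ratio swings 277-fold in normoxic liver and 2.85-fold in normoxic cerebellum, where every library is above 0.

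The members were then compared between treatments over the whole day, with limma on log2 TPM scaled by the median of ratios and with time point as a covariate. Tef in lung had the largest difference. In normoxia its 24 lung libraries ran from 47.2 to 220 TPM with a median of 106, and after IH from 68.6 to 510 TPM with a median of 190. At 10:30 the 3 normoxia libraries held 218, 220 and 211 TPM, and the 3 IH libraries 510, 345 and 376 TPM. At 4:30 they held 75.5, 123 and 73.0 TPM in normoxia, and 422, 188 and 153 TPM after IH. The IH mean was above the normoxia mean at 8 of 8 time points, and all 3 IH libraries were above all 3 normoxia libraries at 6 of them, the exceptions being 1:30 and 13:30.

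Lung Tef rose by 0.62 on the log2 scale after IH (SE 0.0943, 95% interval 0.43 to 0.81, adjusted p = 2.81e-07, 1.54-fold). Among all 15426 genes tested in lung, 71.5% were called at an adjusted p of at most 0.05, so a call by that p alone says little there. With a change of at least 1.5-fold besides, 13.48% were called, and 9.08% were called and higher after IH, and Tef was the only member among them. On TPM as deposited, without the second scaling, the lung Tef difference was 0.92. The scaling moved the median difference of all lung genes from 0.21 to −0.08 and the share of called genes that were higher from 83.3% to 41.0%, and lung Tef was higher on both scales. It was called in 21 of 22 alternatives and without any 1 of the 48 libraries (highest adjusted p 6.50e-07). Within the libraries numbered 1, 2 and 3 alone it was 0.84, 0.49 and 0.50, and called in each. With the number of detected genes as a term it was 0.19 (adjusted p = 0.223). That number ran from 21746 to 25400 in normoxic lung libraries and from 23622 to 28284 after IH, and its part in the result was not tested.

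**Figure D4:**
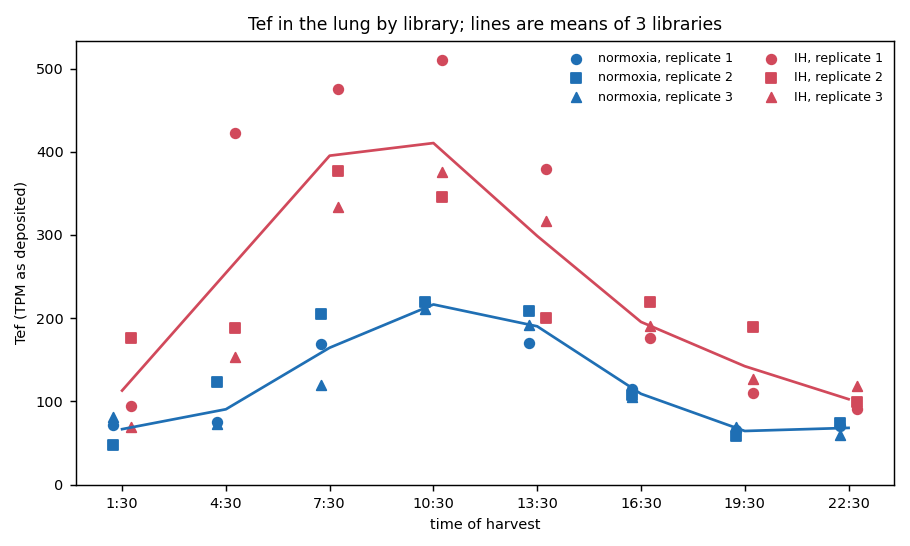
Tef in lung (TPM) at each of 8 time points in normoxia and IH, with single libraries as points and the mean of 3 as lines. The 24 normoxia libraries lie between 47.2 and 220 TPM and the 24 IH libraries between 68.6 and 510 TPM, with no overlap at 6 of 8 time points.

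Markers of cell types were also called in the same lung libraries, by the mean-difference fit that called 71.5% of all lung genes. The ranges of their summed TPM overlapped between the treatments for every list given here. Of the markers of the lung epithelium 4 of 4 fell after IH, with summed levels of 134284 to 263122 TPM in normoxia and 33974 to 202767 TPM after IH. Blood markers fell in 4 of 4 (37065 to 164802 and 25686 to 173969 TPM) and endothelial markers in 3 of 3 (306 to 1071 and 355 to 845 TPM). Of the lymphocyte and neutrophil markers 1 of 5 fell (119 to 593 and 83.0 to 1282 TPM). Of the heart markers 2 of 4 rose (164 to 679 and 257 to 800 TPM), and no marker of these lists had a median of 0 in either group. Whether these shifts contribute to the lung values of the members was not tested, and in bulk tissue fewer cells of a type cannot be told apart from less RNA per cell.

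The other lung members depended on the scale. Nfil3, with 2.35 to 12.6 TPM in normoxia (median 6.23) and 1.80 to 17.5 TPM after IH (median 6.30), fell by 0.26 on the scaled log2 values (SE 0.0977, adjusted p = 0.0160). On TPM as deposited its difference was 0.02 (adjusted p = 0.904). Dbp in lung differed by −0.37 (adjusted p = 0.0525), and by −0.07 on TPM as deposited. On TPM as deposited, before the log2 step, its mean was 60.8 TPM in normoxia and 76.8 TPM after IH (medians 29.8 and 28.3). Also on TPM as deposited, the IH mean of Dbp was above the normoxia mean at 6 of 8 time points. All 3 IH libraries were below all 3 normoxia libraries at 2. These counts do not carry over to the scaled values, on which the difference of −0.37 rests. Hlf in lung differed by 0.07 (adjusted p = 0.548), and by 0.35 (adjusted p = 0.00267) on TPM as deposited. Nfil3 and Hlf in lung therefore changed their call with the scale, whereas Tef was called on both and Dbp on neither.

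In heart, where 45.9% of all genes were called, Hlf rose by 0.28 (SE 0.0982, adjusted p = 0.0204) and Nfil3 by 0.18 (SE 0.0710, adjusted p = 0.0337). Hlf ran from 1.77 to 9.85 TPM in normoxia (median 4.87) and from 2.85 to 15.0 TPM after IH (median 6.62), and Nfil3 from 2.58 to 13.3 TPM (median 4.98) and from 2.11 to 19.1 TPM (median 7.17), so the treatments overlapped. The call of Nfil3 was lost when any 1 of 5 libraries was left out, with adjusted p of 0.0597 without IH replicate 3 at 1:30, 0.0521 without IH replicate 2 at 13:30, 0.0531 and 0.0549 without IH replicates 1 and 3 at 19:30, and 0.0572 without normoxia replicate 3 at 19:30. With the number of detected genes as a term, Hlf in heart turned to −0.22 (adjusted p = 0.419). That number was 22988 to 28331 in normoxic heart and 20316 to 22793 after IH, so the treatments did not overlap in it. Endothelial markers rose in heart in 3 of 3 (83.7 to 216 TPM in normoxia and 146 to 269 TPM after IH), and their part was not tested. Tef and Dbp in heart differed by −0.12 and −0.08 and were not called, although without normoxia replicate 3 at 7:30 Tef was (adjusted p = 0.0327).

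In muscle, where 12.0% of all genes were called, Hlf rose by 0.12 (SE 0.0383, adjusted p = 0.0306), from 2.79 to 12.0 TPM in normoxia (median 6.07) to 3.93 to 12.8 TPM after IH (median 6.85). This call was lost without normoxia replicate 1 at 7:30 (adjusted p = 0.0506). Dbp in muscle, at −0.22 (adjusted p = 0.0631), was not called. No member was called in liver, kidney or cerebellum, where 25.7%, 22.51% and 16.7% of all genes were called by limma. The largest differences there were −0.21 for Dbp in liver, −0.16 for Tef in kidney (adjusted p = 0.0899) and 0.13 for Nfil3 in cerebellum. In all, 5 of the 24 combinations were called. Libraries of several tissues and the 3 replicates of a time point carry no mouse number, and the p-values measure the spread between libraries.

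**Figure D5:**
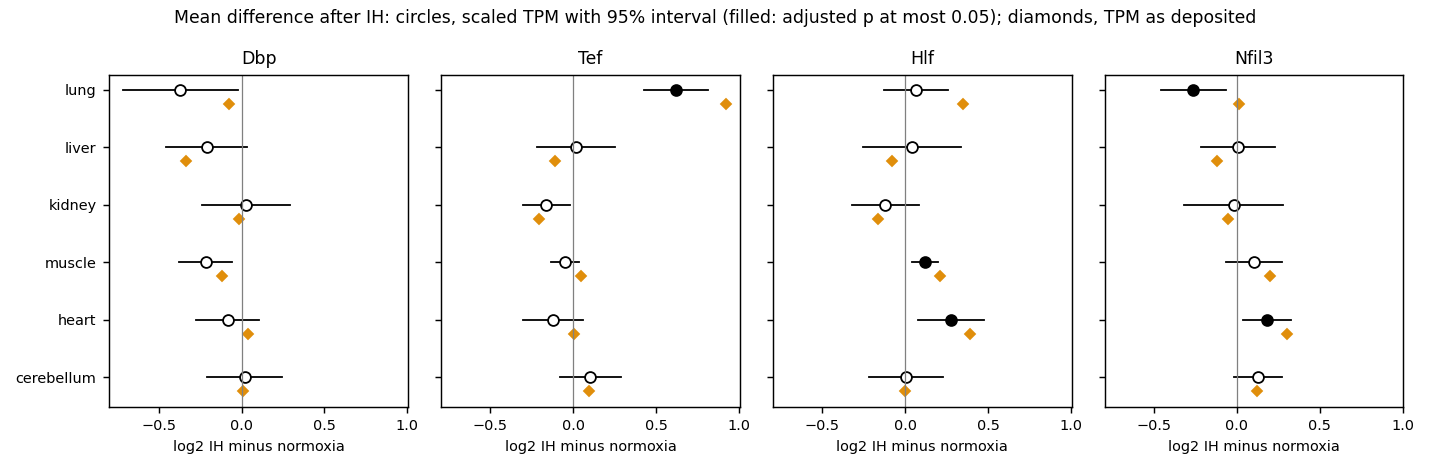
Difference IH minus normoxia (log2, scaled TPM, over 48 libraries per tissue) of Dbp, Tef, Hlf and Nfil3 in 6 tissues, as circles with 95% intervals from limma, filled where called, with diamonds for TPM as deposited. Lung Tef, at 0.62 with an interval of 0.43 to 0.81, lies farthest from 0.

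Whether the IH difference itself varied among tissues was tested over the libraries of all 6 tissues in 1 fit. For Tef it did (limma F = 8.83, adjusted p = 2.81e-07), and for Nfil3 as well (F = 2.68, adjusted p = 0.0251), whereas Dbp (adjusted p = 0.115) and Hlf (adjusted p = 0.143) were not called. Only the call of Tef was kept on TPM as deposited and whichever replicate was left out. That of Nfil3 was lost on TPM as deposited (adjusted p = 0.0946), without replicate 1 (0.138) and without replicate 2 (0.103). Hlf was called on TPM as deposited (0.0178) and without replicate 3 (0.0183), and Dbp without replicate 1 (0.0105). Of the 9876 genes tested, 91.0% were called, so that calls of this test are common. Against the mean of the other 5 tissues, the lung difference of Tef was 0.60 higher (SE 0.0964, adjusted p = 1.69e-08). That of Nfil3 was lower by 0.37 on the log2 scale (−0.37, SE 0.113, adjusted p = 0.00245) and that of Dbp was also lower (−0.32, adjusted p = 0.0325). Here 67.5% of all genes were called. On TPM as deposited the value for Dbp was 0.01 and that for Nfil3 −0.07, neither called, and Tef stayed called.

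Amplitudes of the cosine on TPM as deposited were higher after IH in 17 of the 19 combinations that were rhythmic in at least 1 treatment, the exceptions being Dbp and Tef in liver. On the scaled values the difference of heart Tef turned as well, from 3.37 to −3.78 TPM. The share of all tested genes with a higher amplitude was not computed, so this count is a description. Dbp in cerebellum entered it through its IH call alone, and Tef in liver through its normoxia call alone. Among the members only the amplitude difference of lung Tef was called, with 77.1 TPM in normoxia and 157 TPM after IH (difference 79.7 ± 22.2 TPM, SE, adjusted p = 0.0407). In lung 2.82% of the tested genes were called, all 37 of them higher after IH. On the scaled values the adjusted p of lung Tef was 0.195, and the relative amplitude was 63.6% in normoxia and 65.6% after IH, so that the swing in TPM differed along with the level. In liver, kidney, muscle and heart 0% of 1379, 1292, 398 and 199 tested genes were called by this test. At an unadjusted p of at most 0.05 there were 87, 111, 66 and 39. In cerebellum Dbp was the only gene tested and was not called, so no share of other genes can be set beside it. Dbp in lung went from an amplitude of 69.8 to 102.3 TPM (adjusted p = 0.170), and Nfil3 in heart from 3.93 to 6.37 TPM (adjusted p = 0.170).

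Acrophase differences left out 0 in 3 of 19 intervals, with no adjustment for the number of intervals. The fitted peak of Nfil3 came 2.52 h later after IH in kidney (95% interval 1.14 to 3.90 h) and 1.54 h later in lung (0.074 to 3.00 h), and that of Tef in muscle 0.97 h earlier (−1.87 to −0.068 h). In kidney at 1:30, Nfil3 held 7.51, 13.9 and 23.5 TPM in the 3 IH libraries in ascending order and 5.99 and 8.73 TPM in 2 normoxia libraries, which overlapped. The third normoxia library, at 2.79 TPM, was the one with the high Dbp level, and without it the normoxia acrophase moved from 18.9 to 19.2 h, against 21.4 h after IH. In lung at 22:30 it held 12.0 to 16.7 TPM after IH and 6.61 to 9.61 TPM in normoxia, with no overlap. The Dbp intervals in lung, liver, kidney, muscle and heart all held 0, and the widest, in lung, ran from −1.86 to 0.97 h.

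On the log2 scale, where the swing is measured in folds apart from the level, no gene of any tissue had a rhythm that differed between treatments by the limma F test (0% called in each tissue). At an unadjusted p of at most 0.05 there were 289 genes in lung, 86 in liver, 328 in kidney, 580 in muscle, 72 in heart and 683 in cerebellum. Of the 24 member combinations 8 were at that level, Dbp in 4 tissues among them. The log2 amplitude of Dbp was 0.42 in normoxia and 0.96 after IH in cerebellum, 1.93 and 2.62 in lung, 1.62 and 1.97 in muscle and 1.75 and 2.01 in heart, with adjusted p from 0.825 to 1.00. Tef in lung had log2 amplitudes of 0.92 and 1.09.

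The genes whose daily pattern was most like that of each member were sought among 9876 genes over the 96 means by tissue, treatment and time point, centred within tissue and treatment. These means share libraries between genes, and the correlations are descriptions. Dbp was closest to Nr1d2, the REV-ERB beta receptor, with r = 0.940, then to Tef (0.856), Per3 (0.851), Ciart (0.827) and Coq10b (0.784). Tef was closest to Per3 (0.935), Per1 (0.876), Nr1d2 (0.867), Dbp (0.856) and Fam76a (0.844). Hlf was closest to Tspan4 (0.878), Per3 (0.835), Per2 (0.833), Per1 (0.823) and Tef (0.819). Nfil3 was closest to Ypel2 (0.816), Arntl, which encodes BMAL1 (0.805), Dnajb2 (0.791), Leo1 (0.784) and Cdkn1a (0.783). Of all 9876 genes Dbp was the one most unlike Nfil3, at r = −0.865.

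The E-box activators, which drive Dbp, and the repressors that act against them form the core of the clock and were measured with 10 genes. In lung 6 rose and 1 fell, so that the share called was near the 71.5% of all lung genes, with a median difference of 0.21 against −0.08 for all lung genes. Per3 rose by 0.88 (SE 0.131, adjusted p = 1.78e-07, mean 12.2 TPM in normoxia and 30.8 TPM after IH) and Per2 by 0.74 (SE 0.112, adjusted p = 2.43e-07), both period genes that repress CLOCK and BMAL1. The gene that fell, Cry1 (−0.25), named after its values were seen, changed sign on TPM as deposited. In heart 4 rose and 1 fell, near the 45.9% of all heart genes that were called, and Bhlhe40 rose by 0.32 (adjusted p = 4.15e-04). In liver Clock rose by 0.42 (adjusted p = 0.00808), in kidney Clock fell by 0.19, in muscle Bhlhe41 fell by 0.22 and in cerebellum Per1 rose by 0.36 (adjusted p = 0.0303), each the only gene of the list called there. On TPM as deposited these 4 calls were lost. Of the 10 genes, those rhythmic in normoxia and after IH were 9 and 9 in lung, 8 and 5 in liver, 7 and 6 in kidney, 7 and 9 in muscle, 3 and 9 in heart and 0 and 0 in cerebellum. None of them differed in log2 rhythm between treatments after adjustment.

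Of the ROR and REV-ERB receptors, the input to Nfil3, 4 of 5 were tested in all tissues but cerebellum, where 5 were. In lung 1 rose and 1 fell, and 1 rose in each of liver, muscle and heart. In these tissues 71.5%, 25.7%, 12.0% and 45.9% of all genes were called, in the same order. On TPM as deposited 3 rose and none fell in lung, none rose and 1 fell in liver, 1 rose in muscle and 2 rose in heart. Rora in muscle rose by 0.28 (SE 0.0520, adjusted p = 2.23e-04). Those rhythmic in normoxia and after IH were 3 and 3 in lung, liver and kidney, 2 and 2 in muscle, 2 and 3 in heart and 0 and 0 in cerebellum.

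The PAR bZIP output genes are 11 genes of drug, heme, bile acid and vitamin B6 metabolism with the protease gene Usp2. In liver 2 of the 10 tested fell and none rose, below the 25.7% of all liver genes that were called. The median of the 10 was −0.29 against −0.01 for all liver genes. Cyp2a5, a cytochrome P450 of the liver, fell by 0.80 (SE 0.238, adjusted p = 0.0113), and Por, which passes electrons to cytochromes P450, fell by 0.54 (SE 0.186, adjusted p = 0.0280). In the same liver libraries heart markers rose in 4 of 4, blood markers in 4 of 4 and kidney markers in 3 of 3 tested. Muscle, endothelial, and lymphocyte and neutrophil markers rose in 1, 1 and 2 of 3 tested. Of the liver markers 1 of 4 fell, with summed medians of 51153 TPM in normoxia and 34793 TPM after IH. The liver library in doubt was included, and the part of these shifts in Cyp2a5 and Por was not tested. In lung, where 71.5% of all genes were called, 1 of 6 rose and 4 fell. Cyp2a5 was among those that fell (−0.91 on the log2 scale, adjusted p = 9.85e-04). On TPM as deposited 1 rose and 1 fell in lung. In heart, where 45.9% of all genes were called, 3 of 5 rose and none fell. Among the 3 were Alas1, the first enzyme of heme synthesis, by 0.50 (SE 0.0865, adjusted p = 1.23e-05), and Por by 0.43 (adjusted p = 1.33e-04). None of those tested in kidney, muscle or cerebellum was called. Those rhythmic in normoxia and after IH were 4 and 1 of 9 in lung, 6 and 1 of 11 in liver, 2 and 1 of 6 in kidney, 1 and 1 of 5 in muscle, 1 and 1 of 6 in heart and 0 and 0 of 8 in cerebellum, and no member of the list differed in log2 rhythm after adjustment. Of all genes, the share called rhythmic in normoxia and after IH was 8.56% and 2.86% in liver, 8.49% and 1.19% in kidney and 2.99% and 4.46% in lung. Usp2, named after its values were seen, was rhythmic in both treatments of lung, liver, kidney, muscle and heart, with acrophases from 10.6 to 12.5 h.

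The C/EBP family is made up of other basic leucine zipper factors, whose sites overlap with D-boxes. Of its 4 genes, 1 rose and 3 fell in lung, 1 rose and 1 fell in liver, and 3 rose and 1 fell in kidney. In muscle 1 rose and in cerebellum 1, and none was called in heart. The share of all genes called was 71.5% in lung, 25.7% in liver, 22.51% in kidney, 12.0% in muscle, 16.7% in cerebellum and 45.9% in heart. On TPM as deposited 1 rose and none fell in lung, none rose and 1 fell in liver and in kidney, 2 rose in muscle, 1 rose in heart and none was called in cerebellum. In kidney Cebpb rose by 0.39 (adjusted p = 0.00879) and Cebpa by 0.29 (SE 0.0630, adjusted p = 8.67e-04), both calls that were lost on TPM as deposited. Cebpg rose by 0.15 in muscle (adjusted p = 4.35e-04) and by 0.20 in cerebellum (adjusted p = 0.00143, and 0.241 on TPM as deposited). At most 1 of the 4 genes was rhythmic in any tissue and treatment, against all 4 members in lung, muscle and heart.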

How the data were processed

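RNA from 6 tissues of wild-type mice was sequenced from stranded libraries. Reads were pseudoaligned with Kallisto to the mouse transcriptome by the authors, and transcript values were summed to genes, so that the deposited tables hold TPM values (transcripts of a gene scaled to a fixed total per library) for 35904 genes. The submitters' processing notes also name mm10, FastQC 0.11.3, bcl2fastq and DESeq2, which was not used here because TPM are not counts. TPM sets all libraries to 1 total, so depth is unknown, and a large class of transcripts moves all others.

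Groups were taken from the labels. Mean differences were fitted with limma 3.58.1 in R 4.3.3 (trended empirical Bayes) on log2(TPM scaled by the median of ratios + 0.5), with treatment and time point as terms, over genes averaging 1 TPM or more there. The fitted fold changes understate those of low genes because of the pseudocount of 0.5. Rhythm was a 24 h cosine by least squares on TPM as deposited (numpy 2.4.6, scipy 1.17.1), over genes reaching 1 TPM, with an F test against a flat line. Amplitude differences came from both treatments in 1 model, with adjustment over genes rhythmic in at least 1 treatment. The log2 rhythm difference was the limma F test of treatment by cosine and sine, and the tissue difference the limma F test of treatment by tissue over all libraries, taken as independent, in genes averaging 1 TPM or more in each of the 6 tissues. P-values were adjusted by Benjamini-Hochberg and called at 0.05. All tests were two-sided or F tests, and the steps were tested on simulated data with 200 changed genes.

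The members and the gene lists were chosen with earlier results of these data known, so counts over a list are descriptions. Named were the 4 members, in each tissue the 3 list genes with the largest difference among those called with a mean of at least 5 TPM, and the 5 genes most like each member. Promoter sequences are from RefSeq (GRCm38.p6) and gene positions from GENCODE (GRCm38). All 4 members matched by symbol. Alternatives were other scales, pseudocounts, filters and terms, a rank test, and leaving out replicates, time points and libraries. Those for single libraries and for each replicate number alone were chosen after seeing the data.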

Additional observations from a re-analysis of the deposited data

Results flagged for a closer look

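The difference between IH and normoxia was tested for a difference between tissues, and 3 of the 4 members were called in at least 1 of these tests, in which 91.0% and 67.5% of all genes were called. For Tef the F of limma over 6 tissues was 8.83 and the lung difference was 0.60 above the mean of the other 5 tissues on the log2 scale. It stayed between 0.50 and 0.66 when each replicate was left out. For Nfil3 the F was 2.68 and the lung difference stood at −0.37 against the others, −0.07 on TPM as deposited and −0.27 without replicate 1, the latter 2 not called. For Dbp the F was not called and the lung difference stood at −0.32, which was 0.01 on TPM as deposited, −0.60 without replicate 1, −0.13 without replicate 2 and −0.25 without replicate 3, of which only the value without replicate 1 was called. The part of cell composition and of the number of detected genes in these tissue differences was not tested.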

How the results depend on the processing

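Of the 319 counts of members under alternatives, 271 stayed within 1.5 times the reported count. Of the 1047 single results 850 stayed on their side of the threshold, with the same direction where called. Differences called in neither fit counted among the 850 only if they moved by at most the reported standard error, whatever their sign. Sign changes among them are not listed. Lung Tef was called in 21 of 22 alternatives. Among reported calls lung Nfil3 turned sign, to 0.015 on TPM as deposited, 0.24 with detected genes as a term and 0.0043 within replicate 3. With that term heart Hlf turned to −0.22, and on TPM as deposited Dbp in lung against the other 5 tissues to 0.010. Mean differences were called for 2 members in lung, 1 in muscle, 2 in heart and 0 elsewhere. With treatment alone these counts were 1 in lung, 0 in muscle and 0 in heart. With the number of detected genes as a term they were 1 in kidney, 2 in muscle and 1 in heart. With no filter muscle had 0. Within replicate 2 kidney had 1, within each of the 3 replicates muscle had 0, and heart had 1, 1 and 0 within replicates 1, 2 and 3. Without 16:30 lung had 1, and without 13:30 or 16:30 muscle had 0. Without 1:30, 4:30, 10:30, 16:30, 19:30 or 22:30 heart had 1. Leaving out 1 replicate gave 1 to 2 in lung (1 without replicate 2), 0 to 0 in muscle and 0 to 2 in heart (0 without replicate 1 and 1 without replicate 2).

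Leaving out 1 replicate gave 1 to 4 rhythmic members in normoxic liver (main 3), 1 to 2 in normoxic heart (main 4), 1 to 4 in heart after IH (main 4) and 0 to 0 in cerebellum after IH (main 1), where the rank test also gave 0. The call for lung Tef amplitude (1 member) was lost on the median-of-ratios scale and on the log2 scale with limma (0 each), and leaving out 1 replicate gave 0 to 1, with adjusted p of 0.105 without replicate 1 and 0.0560 without replicate 3. In cerebellum the median-of-ratios scale called 1 amplitude difference, against 0. It was that of Dbp, the only gene tested there (adjusted p = 5.64e-04). Tissue differences of the IH effect by F (2 members) were called for 0 with no terms for time point and for 1 to 3 with 1 replicate left out (1 without replicate 2, and 3 without replicate 3). Lung against the other 5 tissues (3 members) gave 1 on TPM as deposited and 1 with no terms for time point. The causes of these changes were not tested.

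Replicate numbers were not taken to pair the libraries, since same-numbered libraries of normoxia and IH correlated above 0.1 in 54 of 144 pairs, with a lowest value of −0.55, and in no tissue in all of its pairs. In liver 16 of 24 pairs were above 0.1 (median 0.22, against −0.12 for other numbers) and in muscle 12 of 24. The mean deviations of the 3 numbers correlated between treatments at 0.67, −0.065 and 0.49 in liver and at 0.16, 0.38 and 0.65 in muscle, where the block changed no call of a member and gave 315 rhythmic genes in normoxia (main 132) and 536 after IH (main 346). With a replicate block 126 of 131 results stayed as reported. The number of amplitude calls in lung became 0 (Tef, adjusted p = 0.0509), Hlf in normoxic heart lost its rhythm call (adjusted p = 0.0613), and Hlf in normoxic liver (adjusted p = 6.20e-04) and Tef in liver after IH (adjusted p = 0.0400) gained one.

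Left out singly, 14 of the 48 lung libraries brought Dbp past the threshold (adjusted p 0.0172 to 0.0494). They were IH replicates 1 and 3 at 4:30, 1 and 3 at 7:30, 2 at 10:30, 3 at 13:30 and 3 at 16:30, and normoxia replicates 1 and 3 at 4:30, 1 at 7:30, 1 at 10:30, 1 at 13:30, 3 at 16:30 and 2 at 19:30. In muscle 8 libraries did so for Dbp (0.0388 to 0.0499), IH replicates 1 at 7:30, 1 at 10:30, 3 at 13:30 and 3 at 19:30, and normoxia replicates 2 at 4:30, 1 and 2 at 7:30 and 2 at 13:30. Over all genes, the number called moved by more than 1.5 times under some alternative in every tissue for the mean difference (8456 to 18876 in lung, main 11022, 90 to 4881 in liver, main 2909, 1204 to 3627 in kidney, main 2904, 372 to 2083 in muscle, main 1537, 735 to 13086 in heart, main 5861, and 22 to 5585 in cerebellum, main 2481). It did so in all 12 rhythm groups, for example from 48 to 927 in normoxic lung (main 601), from 34 to 1455 in normoxic kidney (main 1248), from 3 to 42 in normoxic heart (main 45) and from 0 to 39 in normoxic cerebellum (main 0). Amplitude calls in lung ran from 1 to 37 (main 37).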
